A study of Peromyscus maniculatus with 6 samples.

Results

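Glycogen metabolism genes, with Ppp1r3c at their head, were described in ear fibroblasts of the deer mouse (Peromyscus maniculatus) with and without tunicamycin. The genes were 9 listed symbols looked up by name in the deposited count table, and 8 of them had a row there: Ppp1r3c, Ppp1r3b, Ppp1r3d, Ugp2, Gys1, Pygl, Pygb and Epm2a, 8 of 24281 genes in all. Gbe1, the glycogen branching enzyme, has no row under that name and is not analysed here. The list was drawn up with the results of the tunicamycin comparison known, in which Ppp1r3c fell. All values of that comparison are therefore a description: each call places a gene within the fit of the whole table, and no call counts as independent support.

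Cells were grown from ear punches of 3 deer mice of the BW stock, 4 weeks old, named BW35770, BW35772 and BW35773. Each culture gave 1 control library and 1 tunicamycin library, so control and treated libraries form 3 pairs. Wells were seeded with 300000 cells, and after 24 h the treated wells received tunicamycin for 5 h, at 5 mg per mL as the labels write it. The sources used here state neither what the control wells received nor the sex of the animals. Tunicamycin stops N-linked glycosylation at its start, which stresses the endoplasmic reticulum (ER).

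Glycogen is a branched store of glucose. UDP-glucose is made from glucose 1-phosphate, glycogen synthase adds it to growing chains, and glycogen phosphorylase releases glucose 1-phosphate again. Protein phosphatase 1 (PP1) activates the synthase and inactivates the phosphorylase. It is brought to glycogen by targeting subunits, of which Ppp1r3c encodes the one called PTG (protein targeting to glycogen).

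Libraries held 37852385 to 49352126 counts on genes. All 9 fibroblast markers named in the table were above 1 CPM (counts relative to a TMM-scaled library size) in every library. Atf4, Ddit3, Trib3, Chac1 and Hspa5, markers of ER stress, all rose with tunicamycin, with log2 fold changes of 1.47 to 4.66 (edgeR adjusted p of 0.00512 or less). Hspa5, the ER chaperone BiP, lost its call when the BW35773 control was left out (edgeR adjusted p = 0.0561), and in the fit with the animal as a block when animal BW35770 was left out (0.0577). Cartilage markers were also expressed, and their summed level was 1888 to 2102 CPM in animal BW35770 against 6233 to 9039 CPM in the others. Adipocyte markers (4 of 6 named) summed to 79.4 to 221 CPM, and the 8 muscle markers to 19.2 to 32.8 CPM. Most of the muscle sum was Acta1, at 14.3 to 22.9 CPM. Tnnt3 stood at 0.91 to 8.06 CPM and differed between the animals (edgeR F test, adjusted p = 0.0149). Krt14 of keratinocytes stood at 2.23 to 22.7 CPM. Ckm, Myod1, Myog, Des and Myh3 of muscle stayed below 1 CPM in every library, as did Krt5, Krt10, Trp63 and Dsp of keratinocytes. So did Ptprc of blood cells, Cdh5, Kdr and Tek of endothelium and all 5 melanocyte markers, and Krt1 had 0 counts. Pecam1, the other endothelial marker, stood at 4.63 and 3.32 CPM in the control and treated libraries of BW35770 and at 0.78 to 1.48 CPM in the others, and differed between the animals (edgeR F test, adjusted p = 0.0316).

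The PTG transcript was several-fold lower in every treated culture than in any control. Ppp1r3c (ENSPEMG00000016973, scaffold KI615396.1, bases 2629396 to 2634346, + strand, 2 exons) stood at 87.0, 76.8 and 78.3 CPM in the controls of BW35770, BW35772 and BW35773, and at 17.9, 21.5 and 20.2 CPM in their treated libraries. The 3 treated libraries lay close together, far below the lowest control. The mean of 3 libraries was 80.7 ± 5.48 CPM (SD) in controls and 19.9 ± 1.79 CPM with treatment, 4.06-fold lower. On the log2 scale the change was -2.02 ± 0.13 (SE), with an edgeR adjusted p = 0.000507. Within the pairs, the log2 differences were -2.27, -1.84 and -1.95. By size this was number 11 of the 107 falls in the table. In bulk RNA, fewer cells of a type and less RNA per cell cannot be told apart. Keratinocyte markers summed to 5.56, 9.54 and 23.1 CPM in controls and to 3.41, 4.23 and 13.1 CPM with treatment, and macrophage markers to 176, 122 and 86.5 CPM and to 154, 69.6 and 69.1 CPM. Muscle markers summed to 19.93, 32.8 and 28.1 CPM in controls and to 19.88, 22.0 and 19.2 CPM with treatment, and endothelial markers to 4.68, 1.37 and 1.53 CPM and to 4.01, 1.17 and 0.87 CPM. These 4 sums were lower with treatment in all 3 pairs, as were those of fibroblast markers (13811 to 17821 CPM in controls, 13740 to 15963 CPM with treatment) and melanocyte markers (at most 0.926 CPM), so 6 of 8 marker lists, and those of cartilage and adipocytes were not. Krt14, the 1 keratinocyte marker above 1 CPM in every library, was not called (edgeR adjusted p = 0.622) but fell in the fit with the animal as a block (adjusted p = 0.02). Cd68, the 1 such macrophage marker, gave nearly all of the macrophage sum and was not called by either fit (0.717, and 0.132 with the block). Ptprc, Csf1r and Adgre1, the other macrophage markers named in the table, stayed below 1 CPM in every library. The macrophage sum is therefore in effect the level of 1 gene. The part of cell make-up in the fall of Ppp1r3c was not tested.

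Of the 8 genes, 1 fell, 0 rose and 7 were not called, where 2.58% of all 13503 tested genes were called, 1.78% as rises and 0.792% as falls. Since that comparison was known when the list was drawn up, nothing is read from the count. All 8 genes passed the filter on low counts. Their median log2 fold change was -0.25, and -0.18 without Ppp1r3c, against -0.01 over all tested genes. By unadjusted edgeR p under 0.05, 3 were lower and 0 higher, where 6.64% of all tested genes were lower and 8.88% higher. DESeq2 called 2 lower, where it called 3.44% of all genes with an adjusted p lower and 5.82% higher. For limma-voom it was 1 lower, against 0.77% of all tested genes lower and 1.61% higher. With the animal as a block the same single gene was called, where 5.47% of all tested genes were, 3.07% as rises and 2.4% as falls.

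**Figure D1:**
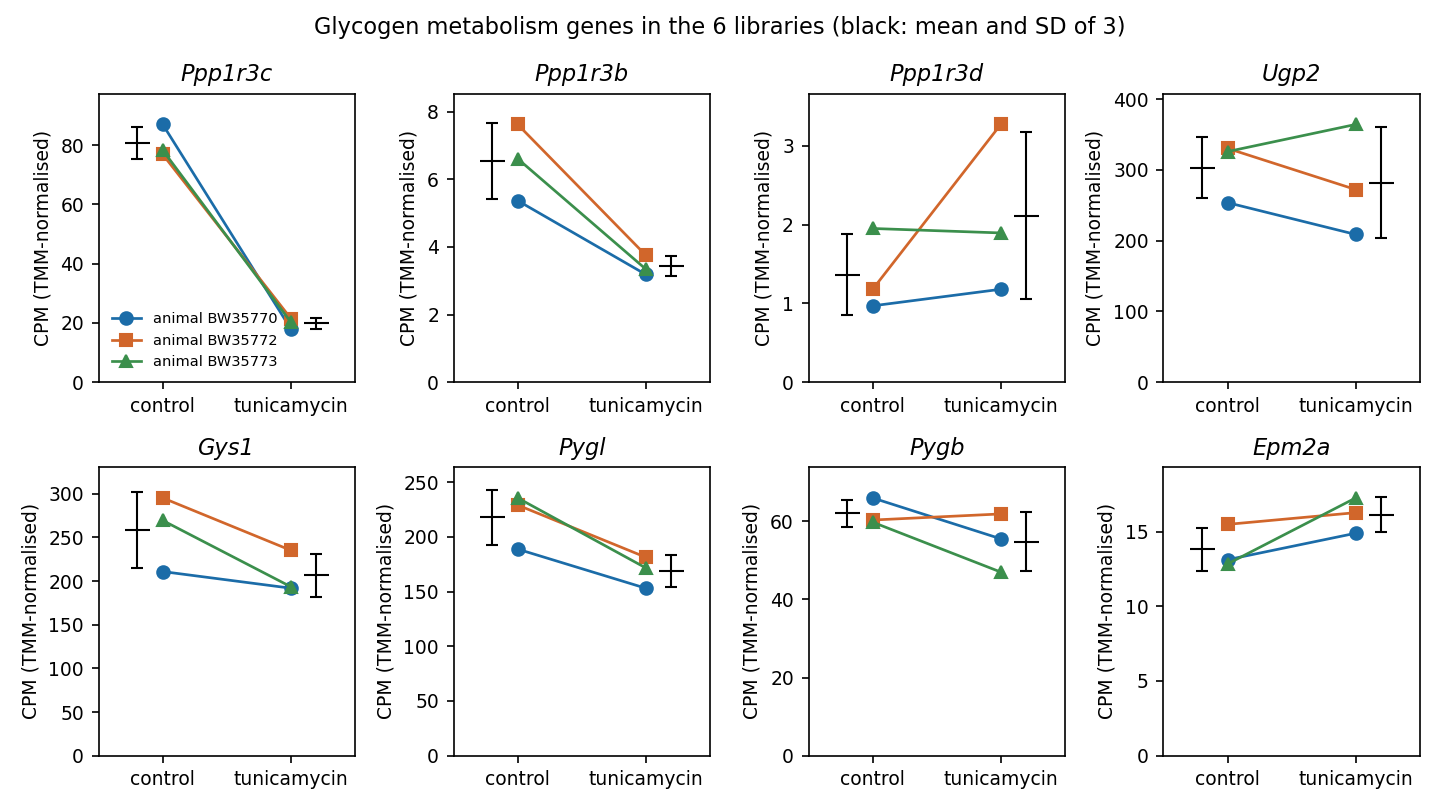
TMM-normalised CPM (y axis, from 0) of each gene in control and tunicamycin libraries (x axis), with 1 coloured line per animal and the mean ± SD of 3 libraries in black. Ppp1r3c goes from 76.8 to 87.0 CPM in controls to between 17.9 and 21.5 CPM, while the lines of Ppp1r3d, Ugp2 and Pygb do not all run the same way.

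The other targeting subunits on the list were far less abundant. Ppp1r3b, known as the main targeting subunit of liver (ENSPEMG00000020436, scaffold KI615354.1, bases 6368257 to 6380416, + strand, 3 exons), stood at 5.37, 7.62 and 6.61 CPM in the controls and at 3.18, 3.75 and 3.34 CPM with tunicamycin, in the same order of animals. The 3 treated values were all below the 3 control values, and the 3 pair differences were -0.74, -1.01 and -0.97 on the log2 scale. The log2 fold change of -0.93 ± 0.23 was not called (edgeR adjusted p = 0.0967, and 0.0529 with the block), although DESeq2 called it lower (adjusted p = 0.00464).

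Ppp1r3d, a more broadly expressed targeting subunit (ENSPEMG00000013652, scaffold KI615388.1, bases 2372061 to 2372900, - strand, 1 exon of 840 bases), stood at 0.97, 1.18 and 1.95 CPM in the controls and at 1.18, 3.27 and 1.90 CPM with tunicamycin. These values rest on 41 to 171 counts per library. The groups overlapped, and the treated library of BW35772 was high while the other treated libraries lay within the range of the controls. The log2 fold change was 0.63 ± 0.47 (edgeR adjusted p = 0.62), and 0.18 without that library.

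Within the whole family of glycogen-targeting subunits, levels per length give the make-up. Summed over Ppp1r3a to Ppp1r3g, the level was 38.3 ± 3.40 CPM per kb of annotated exon in controls and 15.2 ± 1.28 with tunicamycin (SD, n = 3). Ppp1r3c made up 74.7, 78.0 and 76.1% of that sum in the controls of BW35770, BW35772 and BW35773, and 43.8, 46.6 and 51.5% in their treated libraries. It was thus the most abundant of the 7 subunits per length in all 6 libraries. The sum over the other subunits was 9.13 ± 1.44 CPM per kb in controls and 8.04 ± 1.04 with treatment. Their values were 10.7, 7.84 and 8.88 CPM per kb in controls and 8.33, 8.91 and 6.89 with treatment, which overlap.

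Subunits outside the list showed no call. Ppp1r3e and Ppp1r3f had log2 fold changes of -0.16 ± 0.33 and -0.08 ± 0.21, and Ppp1r3g had -0.70 ± 0.52 (edgeR adjusted p = 0.62), which became -0.18 without the control of BW35770 and -1.25 without its treated library. Ppp1r3a, the subunit of skeletal muscle, had 4 counts in the control of BW35770 and 0 elsewhere, and was not tested. Ppp1cc, the only PP1 catalytic subunit of the list that is named in the table, stood at 107.8 ± 6.04 CPM in controls and 112.3 ± 3.44 with treatment.

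**Figure D2:**
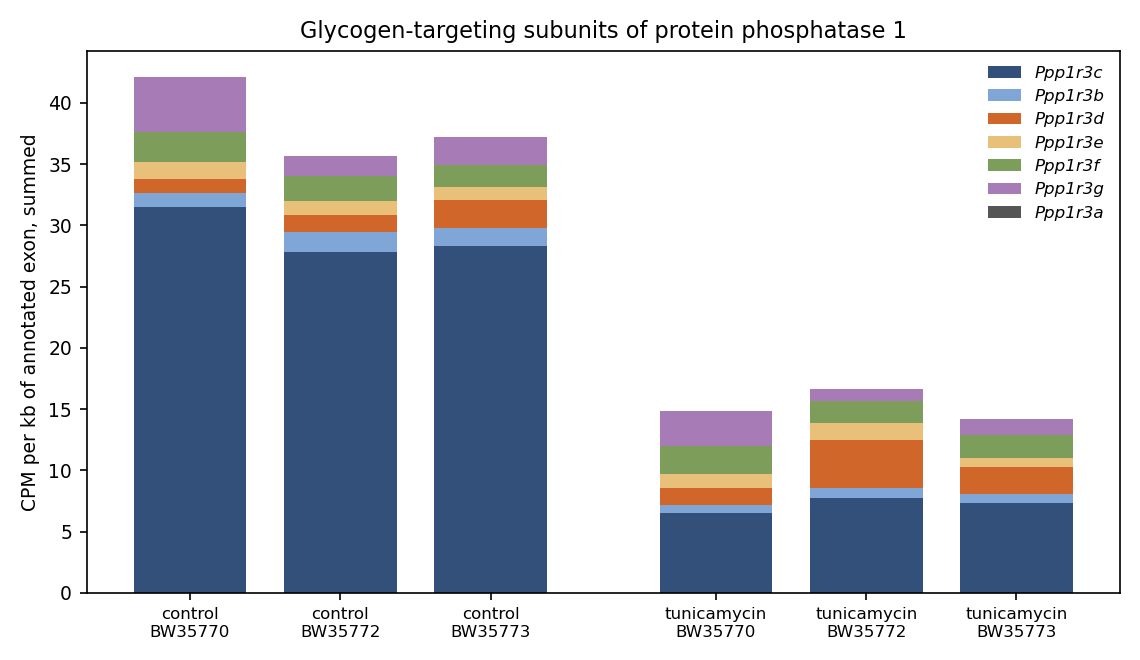
Stacked bars give the level per length (CPM per kb of annotated exon, y axis, from 0) of the 7 glycogen-targeting PP1 subunits in each of the 6 libraries (x axis). The Ppp1r3c section shrinks from between 27.8 and 31.5 in controls to between 6.49 and 7.77 with tunicamycin, while the sum of the other sections stays between 6.89 and 10.7.

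The enzymes of glycogen synthesis were abundant, and neither was called. Ugp2, which makes UDP-glucose (ENSPEMG00000010268, scaffold KI615367.1, bases 5721784 to 5784939, + strand, 11 exons), stood at 253.8, 330.6 and 326.0 CPM in controls and at 209, 272.4 and 364.4 CPM with tunicamycin. It was lower with treatment in BW35770 and BW35772 and higher in BW35773, and the groups overlapped. Over all libraries the log2 difference was -0.11 ± 0.22 (edgeR adjusted p = 0.895), and 0.07 without the treated library of BW35770. Gys1, the glycogen synthase of muscle and most other tissues (ENSPEMG00000014734, scaffold KI615606.1, bases 2142592 to 2160471, + strand, 17 exons), stood at 210.9, 295.3 and 269.5 CPM in controls and at 191.9, 235.2 and 193.5 CPM with treatment. It was lower in all 3 pairs, yet the groups overlapped through the low control of BW35770. The log2 fold change was -0.32 ± 0.16 (edgeR adjusted p = 0.399). Gys2, the liver synthase, had 0 to 6 counts per library and was not tested, so nearly all synthase reads were those of Gys1.

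Both phosphorylases on the list were expressed. Pygl, the liver form (ENSPEMG00000022037, scaffold KI615574.1, bases 3041152 to 3075992, - strand, 20 exons), stood at 188.8, 229.0 and 235.6 CPM in controls and at 153.0, 181.3 and 171.6 CPM with tunicamycin. All 3 treated values were below all controls, and the log2 fold change was -0.37 ± 0.13, which was not called (edgeR adjusted p = 0.23, and 0.102 with the block). Pygb, the brain form (ENSPEMG00000016365, scaffold KI615575.1, bases 2704783 to 2764236, - strand, 20 exons), stood at 66.0, 60.3 and 59.8 CPM in controls and at 55.5, 61.9 and 47.0 CPM with treatment. It was lower in BW35770 and BW35773 and slightly higher in BW35772, and the log2 difference was -0.18 ± 0.13 (edgeR adjusted p = 0.62), and -0.058 without the treated library of BW35773.

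Per length, Pygl made up 76.1 to 81.4% of phosphorylase reads in controls and 75.3 to 80.2% with treatment. Pygm, the muscle form, made up at most 0.599% in any library. The ratio of Gys1 to the sum of Pygl and Pygb per length was 0.784 ± 0.080 in controls and 0.789 ± 0.037 with treatment, and the groups overlapped. The ratio of Ppp1r3c to Gys1 per length was 0.343 to 0.544 in controls and 0.12 to 0.138 with treatment, with no overlap.

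Epm2a encodes laforin, a phosphatase that acts on glycogen itself and whose loss in humans causes Lafora disease (ENSPEMG00000013468, scaffold KI615547.1, bases 1327607 to 1436517, - strand, 5 exons). It stood at 13.1, 15.5 and 12.8 CPM in controls and at 14.9, 16.3 and 17.3 CPM with tunicamycin. Treated values were higher in all 3 pairs, but the groups overlapped. The log2 fold change was 0.22 ± 0.16 (edgeR adjusted p = 0.578). Its partner Nhlrc1, the ubiquitin ligase malin, stood at 2.01, 2.06 and 2.13 CPM in controls and at 3.32, 4.29 and 3.52 CPM with treatment. These groups did not overlap, and the log2 fold change of 0.84 ± 0.25 was not called (edgeR adjusted p = 0.151), while DESeq2 called it higher (adjusted p = 0.0215). The laforin to malin ratio per length was 3.55 to 4.43 in controls and 2.23 to 2.88 with treatment.

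**Figure D3:**
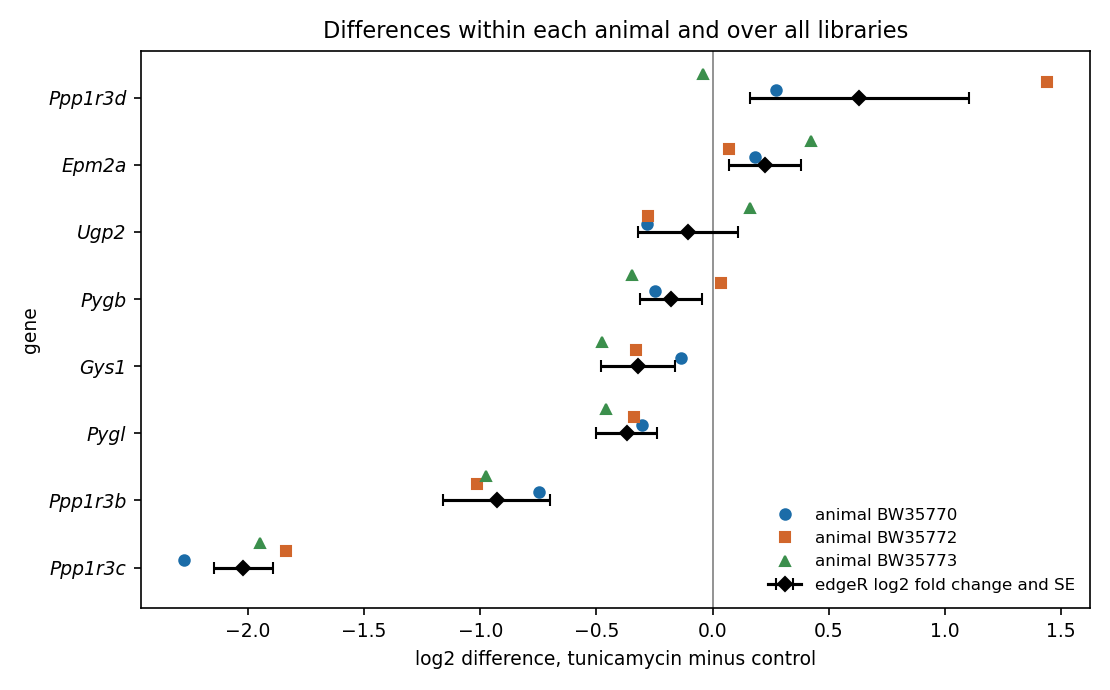
Log2 difference between tunicamycin and control (x axis) for each gene (y axis). Coloured points are the 3 animals, and black diamonds with bars are the edgeR log2 fold change ± SE over all 6 libraries. Ppp1r3c lies between -2.27 and -1.84 in the animals and Ppp1r3b between -1.01 and -0.74, with the other genes nearer to 0 except Ppp1r3d in BW35772 at 1.44.

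Of the 8 genes, 3 (Ppp1r3c, Ppp1r3b and Pygl) had treated values that did not overlap the controls, as had 22.3% of all tested genes. In 5 genes all 3 pairs went the same way. The share of all tested genes that did so was not computed, and nothing is read from that count. Changing the scaling to DESeq2 size factors or upper-quartile factors moved the median of all genes by 0.011 or less in size and left the sign of all 8 as it was.

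The remaining genes of the pathway, from lists chosen by function, held no call. Of 10 tested glycogen enzymes and glycogen-binding proteins 0 rose and 0 fell, with a median log2 fold change of -0.07. In edgeR 2 were higher and 0 lower at an unadjusted p under 0.05 (8.88% and 6.64% of all tested genes). DESeq2 called 1 higher (5.82% of all genes with an adjusted p), and limma-voom called 0. The smallest p-values were those of Nhlrc1, given above, and Stbd1, which binds glycogen and is linked to its delivery to lysosomes. Stbd1 stood at 26.8 ± 3.29 CPM in controls and 38.2 ± 9.74 with treatment, higher by 0.51 ± 0.21 on the log2 scale (edgeR adjusted p = 0.3). Of 16 tested PP1 subunits and kinases that act on glycogen enzymes, including phosphorylase kinase, GSK3 and AMP-activated kinase, 0 rose and 0 fell. For these, edgeR gave 0 at an unadjusted p under 0.05, and DESeq2 and limma-voom called 0. Their median log2 fold change was 0.04. Prkaa2 and Prkab1, subunits of AMP-activated kinase, had the smallest p-values, with log2 fold changes of 0.82 ± 0.39 and 0.18 ± 0.11 (edgeR adjusted p = 0.378 and 0.519).

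Genes on either side of glycogen gave few calls. Of 11 tested genes of glucose uptake and its entry as glucose 6-phosphate 0 were called by edgeR and limma-voom. At an unadjusted edgeR p under 0.05, 1 was higher, where 8.88% of all tested genes were. That gene was Slc2a6, the glucose transporter GLUT6, at 3.21 ± 0.81 CPM in controls and 7.53 ± 1.91 CPM after tunicamycin. It was higher by 1.23 ± 0.30 on the log2 scale (edgeR adjusted p = 0.0944). It was called higher with the block (adjusted p = 0.0189) and by DESeq2 (0.00303). The blocked call was lost without animal BW35770 (0.227). For Hk1, a hexokinase, the log2 difference was -0.23 ± 0.11 (edgeR adjusted p = 0.355). Of 12 tested genes that make or use UDP-glucose or related sugars, Ugp2 included, 0 were called by edgeR, DESeq2 or limma-voom, and 0 at an unadjusted edgeR p under 0.05. Plod3, a collagen-modifying enzyme that transfers glucose, had the smallest p, at -0.26 ± 0.15 on the log2 scale (edgeR adjusted p = 0.499). Uxs1, which makes UDP-xylose, came next with -0.26 ± 0.21, and -0.052 without the treated library of BW35772.

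Of 11 tested glycolysis genes 0 were called, with 4 lower and 0 higher at an unadjusted edgeR p under 0.05 (6.64% and 8.88% of all tested genes). Their median log2 fold change was -0.44, DESeq2 called 3 lower (3.44% of all genes), and limma-voom called 0. That median is the value of Pfkfb4, which had 22 to 63 counts per library (edgeR adjusted p = 0.794). The list covers glycolysis only in part. Of 18 listed genes 11 are named in the table, and Pfkfb2, Tpi1, Gapdh, Pgk1, Eno1, Pkm and Ldha are not. With the block 1 fell, Pgam1, phosphoglycerate mutase (log2 fold change -0.53 ± 0.13 in the fit without the block, edgeR adjusted p = 0.0953, and 0.0427 with the block). That blocked call was lost without animal BW35770 and without BW35772. Several glycogen genes are known to belong to the targets of the hypoxia factor HIF-1. Of 19 tested targets 1 rose and 1 fell, where 1.78% of all tested genes rose and 0.792% fell. Their median was -0.28. At an unadjusted edgeR p under 0.05, 2 were higher and 4 lower (8.88% and 6.64% of all tested genes). DESeq2 called 2 higher and 3 lower (5.82% and 3.44% of all genes with an adjusted p). For limma-voom it was 1 higher and 1 lower (1.61% and 0.77%). Ddit4, an inhibitor of mTORC1, rose by 1.6 ± 0.19 on the log2 scale, with 51.0 ± 13.3 CPM in controls and 154.7 ± 12.7 CPM with treatment (edgeR adjusted p = 0.00848). With the BW35773 control left out it was not called (0.0707). Mxi1, an antagonist of MYC, changed by -0.59 ± 0.10 on the log2 scale, with 78.5 ± 0.75 CPM in controls and 52.3 ± 3.08 CPM with treatment (edgeR adjusted p = 0.0335). It was not called when the control of BW35770 (0.127), BW35772 (0.226) or BW35773 (0.179) was left out, nor without the treated library of BW35770 (0.134), nor with the block and no animal BW35770 (0.399). With the block 2 rose and 3 fell, where 3.07% of all tested genes rose and 2.4% fell. Hilpda was not called in the main fit (edgeR adjusted p = 0.0541) and was called higher with the block (0.0261). DESeq2 also called it. So did edgeR with no filter, with a stricter filter, without the treated library of BW35770, and with the exon-length trend removed. Ankrd37 (edgeR adjusted p = 0.0579 without and 0.0221 with the block) was called lower with the block and by DESeq2. Car9 (0.282 and 0.0434) was called lower only with the block. All 3 of these blocked calls were lost without animal BW35770, and that of Car9 also without BW35772.

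Levels per length were compared among the 8 genes in control libraries. The list was drawn up with the fall of Ppp1r3c known, so its place here is not independent of the choice. In order, the mean control levels were 132 ± 18.7 CPM per kb for Ugp2, 72.0 ± 8.37 for Pygl, 70.9 ± 11.9 for Gys1, 29.2 ± 1.98 for Ppp1r3c, 18.1 ± 1.00 for Pygb, 6.83 ± 0.72 for Epm2a, 1.63 ± 0.62 for Ppp1r3d and 1.41 ± 0.24 for Ppp1r3b (SD, n = 3). Pygl and Gys1 overlapped between libraries, as did Ppp1r3d and Ppp1r3b, and within libraries neither pair kept 1 order. The other neighbours did not overlap. Ppp1r3c was 1.58 to 1.63 times as high as Pygb in each control. With tunicamycin the mean of Ppp1r3c, 7.20 ± 0.65 CPM per kb, came below those of Pygb, 16.0 ± 2.18, and Epm2a, 7.98 ± 0.59. Its move from place 4 to place 6 restates its fall.

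**Figure D4:**
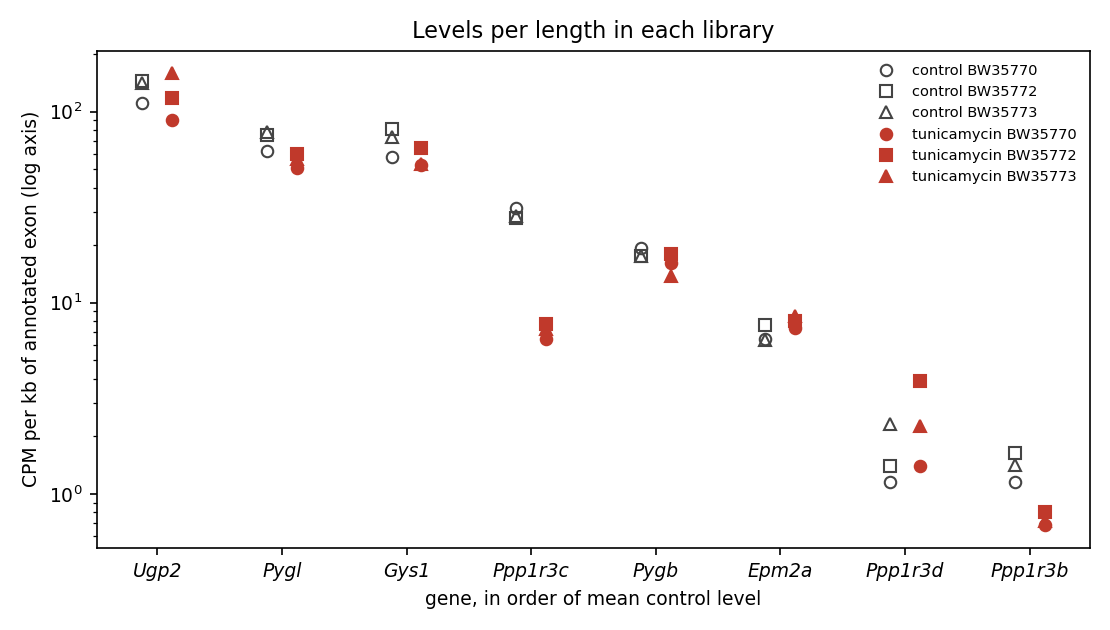
Level per length (CPM per kb of annotated exon, log y axis) of each gene in every library, with genes on the x axis in order of their mean control level, open grey symbols for controls and filled red symbols for tunicamycin. Control levels span 1.15 to 144 CPM per kb, and Ppp1r3c in treated libraries lies between 6.49 and 7.77.

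Differences between the 3 animals were tested with treatment as a term. The tunicamycin fit had no animal term, so spread between animals was part of its error. A gene known for a clear fall there, as Ppp1r3c was, tends to differ little between animals. For such a gene this test is not independent of the choice. Of the 8 genes 0 differed between animals, against 3.53% of all tested genes (edgeR F test, adjusted p under 0.05). At an unadjusted p under 0.05 there was 1, where 15.5% of all tested genes passed. DESeq2 and limma-voom called 0 of the 8, and 7.71% and 3.5% of all tested genes. For Ppp1r3c the edgeR adjusted p was 0.987. Its means over both libraries of an animal were 52.5, 49.2 and 49.3 CPM in BW35770, BW35772 and BW35773. Ugp2 had the smallest p, with means of 231.3, 301.5 and 345.2 CPM (edgeR F test, adjusted p = 0.209). Its largest log2 difference, between BW35773 and BW35770, was 0.59. Without the control of BW35773 the F test called Ugp2 (adjusted p = 0.0185), with that log2 difference at 0.80. For Gys1 and Ppp1r3d the largest log2 differences, between BW35772 and BW35770, were 0.39 and 0.96 (edgeR F test, adjusted p = 0.385 and 0.509). Each F test covers all 3 animals, and no single pair of animals was tested. By the same test 5 of 7 cartilage markers, 2 of 4 adipocyte markers and 4 of 9 fibroblast markers differed between the animals. The part of cell make-up in the levels of Ugp2, Gys1 and Ppp1r3d was not tested.

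Across the 6 libraries, the 5 genes whose log2 CPM followed Ppp1r3c most closely were Cant1, Pomgnt1, Dnajb1, 2510039O18Rik and Pja1, with Pearson's r of 0.992 to 0.995 among 8907 other named genes of at least 1 on the mean log2 CPM scale. The libraries are 3 pairs from 3 animals and share their treatment, so these are not 6 independent points. Ppp1r3c splits the libraries by treatment, so every r with it, here and below, largely restates a gene's tunicamycin difference. No shared regulation is read from these values. Cant1, a nucleotidase of the secretory pathway, went from 50.6 ± 0.17 to 32.3 ± 0.42 CPM, and Pomgnt1, an enzyme of O-mannose glycosylation, from 57.6 ± 1.34 to 34.8 ± 0.74 CPM. Dnajb1, a cytosolic HSP40 co-chaperone, had the largest fold among the 5, with 104.1 ± 3.54 CPM in controls and 41.5 ± 1.56 CPM with treatment. Its log2 fold change was -1.33 ± 0.10 against -2.02 ± 0.13 for Ppp1r3c. Pja1, a ubiquitin ligase, changed by -0.74 ± 0.11 (edgeR adjusted p = 0.0202), and 2510039O18Rik had -0.45 ± 0.10, which was not called (edgeR adjusted p = 0.0657). The calls for Cant1, Pomgnt1 and Pja1 were lost without any 1 of the 3 controls or the treated library of BW35770, with adjusted p-values from 0.0722 to 0.166, and with the block and no animal BW35770 (0.255 to 0.329). Among the glycogen genes, r with Ppp1r3c was 0.932 for Ppp1r3b, 0.825 for Pygl, 0.658 for Gys1, 0.625 for Pygb, 0.261 for Ugp2 and -0.723 for Epm2a, while Ppp1r3d was below the level required.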

How the data were processed

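The table deposited by the authors holds raw read counts per gene, 1 column per library and all columns used. Reads were aligned with STAR 2.6.1, handled with SAMtools 1.6 and counted with featureCounts of Subread, per the submitters' processing notes. The sources used here name neither a genome build nor an annotation release, and do not say how reads with several alignments were handled. Names, scaffolds, exon bounds and exon lengths are the table's own. No exon of the 8 genes overlaps an exon of another gene in the table on either strand.

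The counts were fitted in edgeR 4.0.16 (R 4.3.3). Low genes were removed by filterByExpr (minimum count 10, minimum total 15), and libraries were scaled by TMM and tested with the two-sided quasi-likelihood test, tunicamycin against control, n = 3 libraries each. Benjamini-Hochberg adjustment ran over the 13503 tested genes, and the threshold was 0.05. "Rose", "fell" and "called" refer to that threshold. The SE is the log2 fold change divided by the square root of F. Pair differences use log2 CPM (prior count 2). Differences between animals were tested as an F test over the animal terms with treatment in the model. Alternatives were DESeq2 1.42.0, limma-voom (limma 3.58.1), other scalings and filters, the animal as a block, and each library or animal left out. Of these, the main edgeR fits of treatment and of animals were run on simulated counts. The simulation gave every gene the same dispersion and, in the treatment run, no difference between animals. It is simpler than these data and does not cover the block or the other alternatives.

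The titles name the animal, so libraries of 1 animal are pairs. Across genes, a library's deviation from its group mean correlated with that of its partner at 0.656, 0.408 and 0.217. Blocked values are given for calls that the block changed or came near to changing. The p-values of the treatment fit without the block reflect the spread among cultures of 3 animals. Those with the block, and those of the test between animals, rest on the spread left after animal and treatment are fitted.

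The genes, the lists and the tests were chosen with earlier results of these data known. Named genes are the listed genes, their paralogs, the called genes of each list, the 2 smallest p-values of 4 lists, 5 response genes, and the 5 genes most like Ppp1r3c. Pgam1, Pfkfb4, Hilpda, Ankrd37 and Car9 were chosen after their values were seen.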

Additional observations from a re-analysis of the deposited data

How the results depend on the processing

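Over the alternatives run, Ppp1r3c kept its direction and its call in all 17, with log2 fold changes from -2.11 to -1.89 and adjusted p-values of at most 0.008. The count of called genes among the 8 was 1 in each of them except DESeq2, where it was 2. Over all tested genes 348 were called, against 1080 with DESeq2 and 739 with the replicate block. Without 1 library the count was 113, 66 and 65 for the controls of BW35770, BW35772 and BW35773, and 134, 230 and 564 for their treated libraries. With the block and 1 animal left out it was 111, 948 and 1632. For the other glycogen genes the count was 0, against 1 with DESeq2. For neighbouring pathways it was 2, against 8 with DESeq2 and 7 with the replicate block, and 0 to 9 with libraries or animals left out. Genes differing between animals numbered 477, against 789 without a filter, 1041 with DESeq2, 146 without the treatment term, 907 with the exon-length trend removed (an alternative chosen after seeing the data), and 64 to 1997 without 1 library. Among the 8 genes that count was 0, and 0 to 1 without 1 library. The block changed no call among the 8 genes. Among the named genes signs reversed only in uncalled ones. With 1 library left out, log2 fold changes ran from -0.316 to 0.070 for Ugp2 (positive without the treated library of BW35770), from -0.478 to 0.208 for Pygm, from -0.398 to 0.096 for Ppp1r3e and from -0.195 to 0.040 for Ppp1r3f. With the block and 1 animal left out they ran from -0.577 to 0.287 for Pygm and from -0.481 to 0.012 for Ppp1r3e. Without 1 library, uncalled values that moved by over 1.5 times and kept their sign ran from -0.449 to -0.181 for Gys1 (without the control of BW35772), from -0.261 to -0.058 for Pygb, from 0.175 to 0.349 for Epm2a (without the control of BW35772), from 0.178 to 0.981 for Ppp1r3d, from -1.25 to -0.176 for Ppp1r3g, from -0.337 to -0.144 for Plod3 and from -0.362 to -0.052 for Uxs1. Ppp1r3c was not called between animals in any alternative. Its log2 difference between BW35772 and BW35770 was -0.0027 in limma-voom and -0.095 without the treatment term, and -0.149 to 0.234 without 1 library. The cause was not tested. Depth limits Ppp1r3d, with 41 counts in its lowest library, and Pygm, with 24.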
